A study of Mus musculus with 48 samples.

Results

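The complement genes described here are C1qa, C1qb, C1qc, C3, C4b, C3ar1 and C5ar1, 7 of the 48709 genes counted, and they were chosen by name as components and receptors of the complement cascade. RNA-sequencing reads on each gene were counted in 48 libraries from 46 mice, 2 of which had a second run that was summed with the first. All mice carried the C57BL/6J background and, per the study's methods, were male. The first experiment compared Fmn2-/- mice, which constitutively lack the actin nucleator Formin 2, to Fmn2+/+ wild-type mice in the dentate gyrus at 3 months of age (5 mice per genotype) and at 8 months (5 knockout and 3 wild-type mice). The second crossed Fmn2 mice with APPPS1-21 mice, which express mutated human amyloid transgenes in neurons and deposit amyloid, and sampled the dentate gyrus at 3 months in 7 mice labelled FMN2-/-_APP and 9 mice labelled FMN2 +/+ APP, so that every mouse of the cross carried the amyloid transgenes. The third compared 6 APP mice to 6 wild-type mice labelled as 4 months old, and neither group carries a change of Fmn2 in its labels.

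Complement is a cascade of plasma-type proteins that tags targets for removal by phagocytes. In the classical pathway the recognition molecule C1q, assembled from A, B and C chains, binds a target and leads to cleavage of C4 and then of C3, whose fragments coat the target. Small fragments of C3 and C5, the anaphylatoxins, signal through the receptors encoded by C3ar1 and C5ar1. In the brain microglia are the main source of C1q and carry both receptors, whereas astrocytes are known to transcribe C3 and C4b. C1q and C3 are known for tagging synapses in development and around amyloid plaques.

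The genes of the C1q chains lie next to each other on the minus strand of chromosome 4 (GRCm38, GENCODE M21), with C1qb at chr4:136880129-136886187, C1qc at chr4:136889804-136893065 and C1qa at chr4:136895917-136898803. C1qb and C1qc are 3616 bases apart, C1qc and C1qa 2851 bases, and the whole cluster spans 18675 bases. C3ar1 lies at chr6:122847138-122856161, C5ar1 at chr7:16246743-16259540, C4b at chr17:34728380-34743882 and C3 at chr17:57203970-57228136, all on the minus strand.

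The sequence before the start site is shown for both C1q genes with an entry, because they are neighbours whose levels moved together, and for C3ar1, which rose with them at 4 months, and C3, which did not pass the test. The sequences are from RefSeq (GRCm38.p6), read 5′ to 3′ on the minus strand up to the base before the start site and without bases that fall in an annotated exon. Entries were matched for 5 of the 7 genes, C1qb, C1qc, C3, C3ar1 and C5ar1. Capitals mark the PU box, GAGGAA on either strand, the core bound by the myeloid factor PU.1. They stand at chr4:136886201-136886450, chr4:136893066-136893164, chr6:122856162-122856407 and chr17:57228137-57228386 in the order printed.
C1qb: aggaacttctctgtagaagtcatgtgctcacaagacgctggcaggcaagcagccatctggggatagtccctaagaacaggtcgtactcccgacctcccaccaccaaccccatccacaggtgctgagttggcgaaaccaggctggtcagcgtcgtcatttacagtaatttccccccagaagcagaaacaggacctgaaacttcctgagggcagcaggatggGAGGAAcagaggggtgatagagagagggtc
C1qc: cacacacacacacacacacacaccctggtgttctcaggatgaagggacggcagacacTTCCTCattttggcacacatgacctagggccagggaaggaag
C3ar1: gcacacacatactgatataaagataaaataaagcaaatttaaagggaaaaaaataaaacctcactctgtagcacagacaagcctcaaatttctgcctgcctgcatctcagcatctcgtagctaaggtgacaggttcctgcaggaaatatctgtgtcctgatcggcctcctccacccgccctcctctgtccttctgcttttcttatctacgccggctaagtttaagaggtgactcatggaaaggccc
C3: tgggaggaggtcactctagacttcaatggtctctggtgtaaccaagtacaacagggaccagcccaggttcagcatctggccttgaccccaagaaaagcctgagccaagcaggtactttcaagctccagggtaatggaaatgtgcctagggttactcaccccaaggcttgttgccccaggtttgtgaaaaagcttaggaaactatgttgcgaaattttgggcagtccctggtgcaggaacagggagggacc
C1qb held 1 PU box at positions -30 to -25 from its start site, and C1qc held 1 at -193 to -188, read on the opposite strand. The other 3 windows of 250 bases held none. A PU box is common, being present in 23.3% of 32851 promoters of this length, so the matches only describe the sequence. The MAF half-site TGCTGAC, found in 3.81% of promoters, and the STAT-type motif TTCNNNGAA, found in 7.02%, matched in none of the 5 windows.

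Several facts on the libraries touch the values. Reads on genes ranged from 6818809 to 43921030 per mouse, with 7 of the 8 mice at 8 months between 6818809 and 11675280. Fmn2 itself, in counts per 1000000 of the TMM-scaled library size (CPM), was at 93.2 to 109 CPM in Fmn2+/+ mice and at 22.2 to 27.4 CPM in Fmn2-/- mice at 3 months. In the cross it went against the labels, since the mice labelled FMN2-/-_APP were at 83.3 to 101.8 CPM and those labelled FMN2 +/+ APP at 18.9 to 23.4 CPM. The summed dentate granule cell markers (6 genes) reached 139 to 201 CPM in the mice at 4 months and 664 to 1243 CPM elsewhere, while the 5 cortical layer markers were at 432 to 494 CPM against 75.7 to 215 CPM; the labels of those mice give the dentate gyrus and 4 months, while their titles carry the letters PFC and several ages and the study's text gives a younger age, so the tissue and age of these mice are uncertain and they are called here by their labels. Choroid plexus markers summed to over 500 CPM in 5 mice, which were 1 Fmn2-/- mouse at 3 months, 2 Fmn2-/- mice at 8 months and 2 mice labelled FMN2 +/+ APP. The Fmn2-/- replicates 2 and 3 at 8 months differed by less than other pairs of that group (chi-square per degree of freedom, 1.62 against 3.50 to 6.40), and were kept as 2 mice.

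Per exon length, C1q far outranked the other members. In wild-type mice at 4 months C1qb stood at 36.5 ± 1.82 CPM per kilobase of exon (RPKM, SD, n = 6), C1qa at 33.7 ± 1.40 and C1qc at 14.7 ± 0.988. C4b followed at 1.68 ± 0.458 RPKM, C3ar1 at 0.552 ± 0.123, C5ar1 at 0.307 ± 0.0719 and C3 at 0.0427 ± 0.0287. The C1qc value is understated, because its merged exons measure 1931 bases while its transcripts measure 946 to 1203. Over all 46 mice the ratio of C1qa to C1qb per length was 0.955 ± 0.101 (SD, range 0.719 to 1.22).

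**Figure D1:**
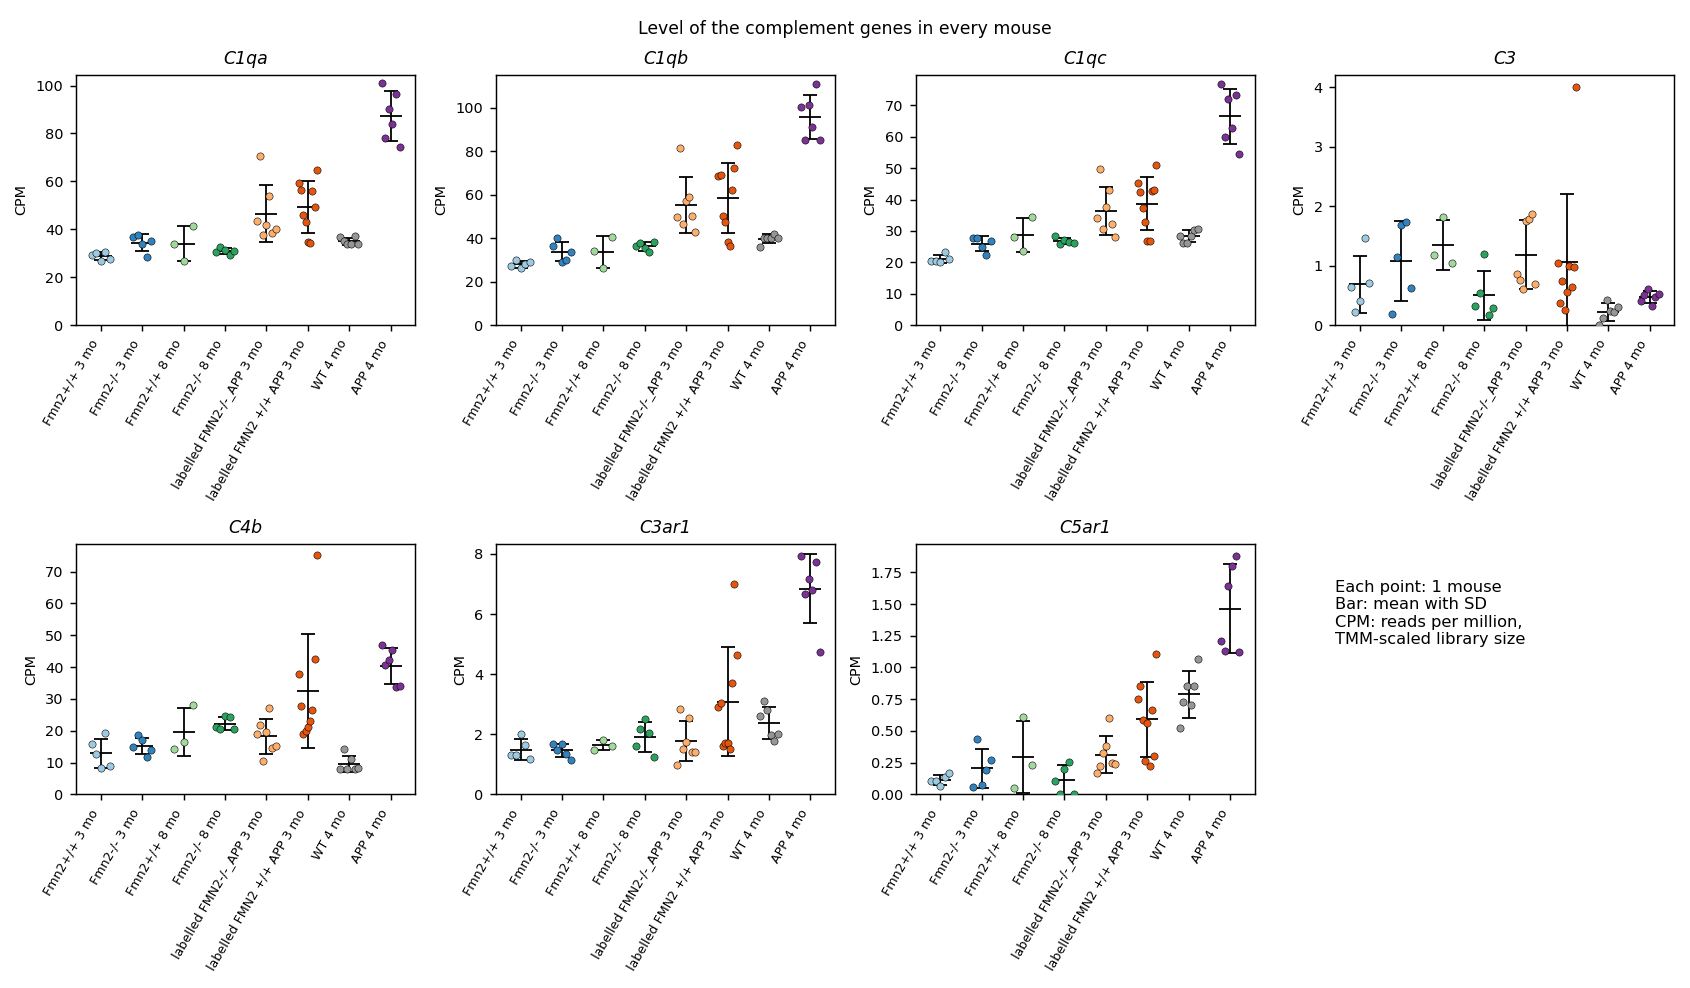
Level of each complement gene in CPM (y axis, linear from 0) in every mouse (points) of the 8 groups (x axis), with the group mean and SD as bars. C1qa is at 74.2 to 100.9 CPM in the 6 APP mice at 4 months and at 33.7 to 37.0 CPM in the 6 wild-type mice, while the ranges of C3 overlap. The highest C4b and C3 points belong to 1 mouse labelled FMN2 +/+ APP, at 75.3 and 4.01 CPM.

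The comparison of APP to wild-type mice at 4 months asks how the amyloid transgenes alone affect complement transcripts. All C1q chains rose, by 2.36- to 2.51-fold, C4b rose 4.23-fold and both receptor genes rose, whereas C3 did not pass the test. A gene was called when its edgeR p (quasi-likelihood F test), adjusted over all genes tested by the Benjamini-Hochberg method, fell under 0.05 and its log2 fold change reached 0.5. By this rule 6 of the 7 complement genes were called higher, while 2.17% of the 16733 genes tested were called higher and the median log2 fold change was 1.28 over the members and 0.00 over all genes. Lane coincided with genotype, the APP libraries on lane 7 and the wild-type libraries on lane 5, so the 2 cannot be told apart.

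C1qa, the gene of the A chain, was at 100.9, 78.0, 90.4, 83.8, 96.4 and 74.2 CPM in the APP mice. It stood at 36.7, 35.0, 33.9, 34.0, 37.0 and 33.7 CPM in the wild-type mice. The groups did not overlap, and the wild-type mice lay close together. The fold change was 2.51 (95% interval 2.28 to 2.76; log2 1.33, SE 0.07; edgeR adjusted p = 1.82e-10).

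C1qb, which encodes the B chain, was at 100.4, 85.1, 101.2, 91.3, 111 and 85.2 CPM in APP mice. In wild-type mice it was at 35.8, 40.1, 40.1, 40.2, 41.7 and 40.2 CPM. Again every APP mouse was above every wild-type mouse, and replicate 1 was the lowest of the wild-type mice. The log2 fold change was 1.28 (SE 0.06, edgeR adjusted p = 4.52e-11), a fold of 2.43.

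C1qc, encoding the C chain, was at 77.0, 59.8, 72, 62.8, 73.2 and 54.6 CPM in APP mice and at 28.5, 26.3, 26.1, 28.4, 30.4 and 30.6 CPM in wild-type mice. Replicates 1, 3 and 5 were the highest APP mice for C1qa and C1qc alike. The log2 fold change was 1.24 (SE 0.08, edgeR adjusted p = 7.12e-09). The chains thus rose by like amounts, with overlapping intervals of 2.28 to 2.76, 2.22 to 2.65 and 2.12 to 2.63 for the fold of C1qa, C1qb and C1qc, and the ratio of C1qa to C1qb per length was 0.954 ± 0.0530 in APP mice and 0.927 ± 0.0738 in wild-type mice (SD, n = 6 each).

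C4b encodes C4, which is cleaved once C1q is engaged. The APP mice were at 47.0, 40.6, 42.2, 45.3, 33.7 and 33.9 CPM, the wild-type mice at 7.93, 14.3, 7.90, 11.0, 7.94 and 8.30 CPM. No wild-type mouse came near the APP mice, and wild-type replicate 2 was the highest of its group. The log2 fold change of 2.08 (SE 0.16, edgeR adjusted p = 2.08e-06) was the largest among the members. C4b shares 34.6% of its windows of 50 bases with the neighbouring paralogue C4a, so reads on those parts could not be assigned to 1 gene; C4a itself was at 2.52 ± 0.322 CPM in APP and 2.65 ± 0.417 CPM in wild-type mice (SD, n = 6 each), a log2 difference of -0.07.

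C3, the central component on which all activation routes converge, was barely transcribed. Its 6 APP libraries held 8 to 16 reads, at 0.402, 0.498, 0.611, 0.328, 0.479 and 0.525 CPM. The wild-type libraries held 0 to 7 reads, at 0, 0.121, 0.426, 0.235, 0.226 and 0.312 CPM, where the count of 0 allows a level of up to 0.157 CPM (3 counts, counting error only). The groups overlapped between 0.328 and 0.426 CPM, and the log2 difference of 1.15 (SE 0.37) did not pass (edgeR adjusted p = 0.110).

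C3ar1, the receptor of the C3a fragment, was at 7.92, 6.67, 7.18, 6.80, 7.73 and 4.73 CPM in APP mice and at 2.61, 3.10, 2.80, 1.99, 1.76 and 2.01 CPM in wild-type mice. The groups did not overlap, APP replicate 6 being the lowest of its group as it was for C1qa and C1qc. The fold change was 2.89 (95% interval 2.35 to 3.55, edgeR adjusted p = 6.55e-07). C5ar1, the receptor of C5a, was at 1.21, 1.13, 1.64, 1.80, 1.88 and 1.12 CPM in APP mice and at 0.522, 0.724, 0.851, 0.704, 0.857 and 1.07 CPM in wild-type mice. The highest wild-type mouse fell just short of the lowest APP mouse. Its log2 fold change was 0.89 (SE 0.21, edgeR adjusted p = 0.0146), and the call was lost when all 8 groups shared 1 estimate of the spread (edgeR adjusted p = 0.328).

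Most other genes of the cascade were not called. Of 46 other complement genes listed, 30 were tested, 4 were called higher and none lower, with a median log2 fold change of 0.01. Among all 16733 genes tested 2.17% were called higher. The 4 complement genes included Itgax (log2 5.11), Itgb2 (1.63) and Itgam (0.77), whose products form the integrin receptors for C3 fragments. Itgam also counts among the microglia markers below, and Itgax among the plaque-associated ones. None of 7 tested classical and lectin pathway genes, 1 alternative pathway gene or 2 terminal pathway genes was called, and 1 of 14 regulators and 3 of 6 receptors were.

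Markers of microglia moved with the members. Of 10 microglia markers 9 were called higher (median log2 fold change 0.76), and their summed level was 542 to 699 CPM in APP mice against 325 to 358 CPM in wild-type mice. Of 10 markers of plaque-associated microglia 9 were called (median 2.12), with sums of 319 to 396 against 121 to 138 CPM. No marker on either list was at 0 in a whole group. Set against 100 CPM of the summed microglia markers, C1qa stood at 12.4 to 16.6 CPM in APP mice and at 9.50 to 11.4 CPM in wild-type mice, C1qb at 13.6 to 16.5 against 10.7 to 12.8 CPM, and C1qc at 9.53 to 12.6 against 7.73 to 9.36 CPM. C1q thus remained higher per microglia marker in every APP mouse. C3ar1 was at 0.872 to 1.3 CPM per 100 marker CPM in APP mice and at 0.542 to 0.935 in wild-type mice, which overlapped in part. C5ar1 was at 0.180 to 0.320 CPM in APP mice and at 0.155 to 0.325 in wild-type mice, which overlapped throughout. In bulk tissue more cells of a type and more RNA per cell cannot be told apart. Among 9 astrocyte markers only Gfap was called (log2 2.10), the choroid plexus markers summed to at most 5.71 CPM in all 12 mice, and the part of any of these cell types in the results was not tested.

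**Figure D2:**
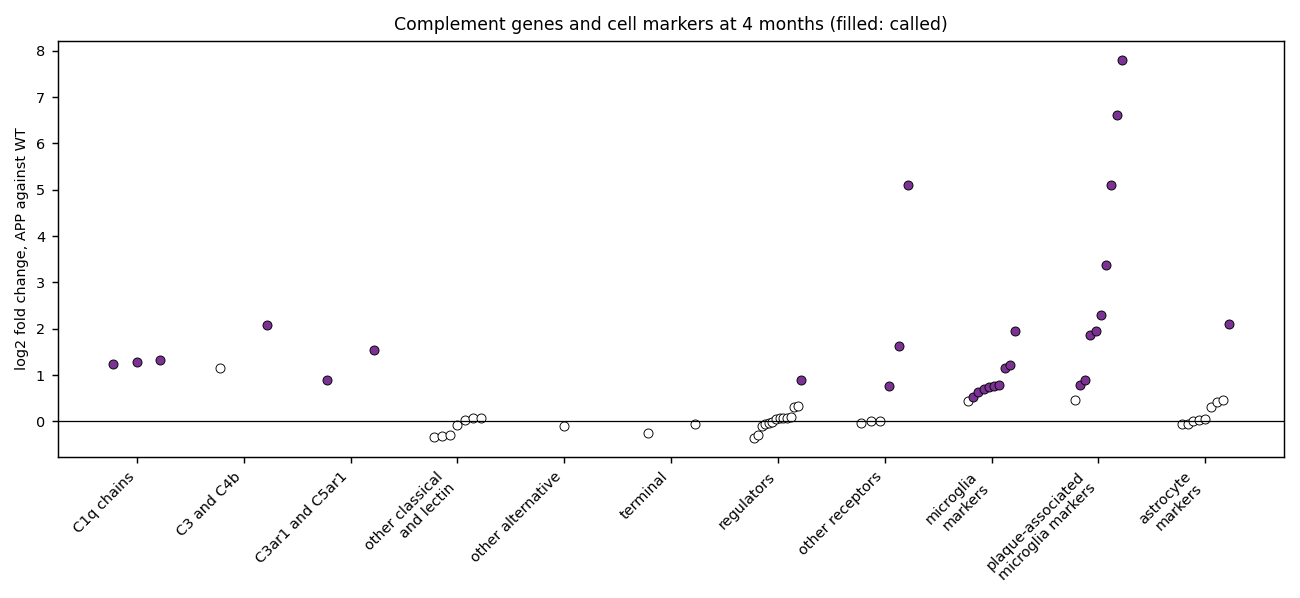
Log2 fold change of APP against wild-type mice at 4 months (y axis) for each tested gene of the complement lists and of 3 cell marker lists (x axis), filled where called. The 3 C1q chains sit between 1.24 and 1.33, C4b at 2.08, and the tested genes of the other classical, alternative and terminal lists stay near 0.

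The cross allowed amyloid to be examined in the dentate gyrus at 3 months, by setting its 16 mice against the 10 Fmn2+/+ and Fmn2-/- mice without transgenes. The same 6 complement genes were called higher, C3 again not, while 9.23% of the 17599 genes tested were called higher and the median log2 difference was 0.68 over the members and 0.02 over all genes. The mice compared belong to different experiments, so amyloid and experiment cannot be told apart. Since the contrast averages over both Fmn2 labels, it does not depend on which label is right.

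C1qb rose most among the chains, by 0.88 on the log2 scale (SE 0.12, edgeR adjusted p = 1.85e-06). The cross ranged from 36.4 to 82.9 CPM with a median of 53.8, and the mice without transgenes from 26.1 to 40.0 CPM with a median of 29.6. In 14 of 16 cross mice the level exceeded every mouse without transgenes; the exceptions, at 36.4 and 38.2 CPM, were both mice of the cross with choroid plexus markers over 500 CPM. C1qc rose by 0.68 (SE 0.10, edgeR adjusted p = 3.78e-06), with medians of 37.5 and 22.8 CPM, and C1qa by 0.60 (SE 0.11, edgeR adjusted p = 4.54e-05), with medians of 44.7 and 30.4 CPM. For C1qc 14 and for C1qa 13 of the 16 cross mice lay above all 10 others.

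C4b spread widely in the cross, from 10.5 to 75.3 CPM (median 21.5), against 8.30 to 19.2 CPM (median 14.4) without transgenes. The log2 difference was 0.79 (SE 0.21, edgeR adjusted p = 0.00320), and 11 of 16 cross mice were above all others. C4a also rose here, by 0.80 (edgeR adjusted p = 0.00864), beside -0.07 at 4 months. C3 ranged from 0.262 to 4.01 CPM in the cross and from 0.185 to 1.73 CPM without transgenes, and the log2 difference of 0.37 (SE 0.39) was within the spread (edgeR adjusted p = 0.457).

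Both receptors were called at low levels. C5ar1 was at 0.166 to 1.11 CPM (median 0.355) in the cross and at 0.0616 to 0.434 CPM (median 0.120) in the other mice, a log2 difference of 1.44 (SE 0.33, edgeR adjusted p = 0.000747) that rests on 2 to 11 reads per library in mice without transgenes. C3ar1 was at 0.973 to 6.99 CPM against 1.16 to 2.02 CPM, a log2 difference of 0.65 (SE 0.23, edgeR adjusted p = 0.0212). The lowest C3ar1 level of all 26 mice belonged to a mouse of the cross.

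More of the cascade was called across the experiments than at 4 months. More of all genes was called too, since 9.23% of 17599 genes were called higher and 1274 lower, beside 2.17% called higher at 4 months. Of 31 other complement genes tested 9 were called higher and 2 lower. The first 8 by adjusted p included Cd59a (log2 1.24), a membrane inhibitor of the terminal complex, Itgb2 (0.58), C4bp (-1.18), a regulator that binds C4, C8g (0.56) of the terminal complex, C4a (0.80), C2 (0.60), the protease that joins C4 in the C3 convertase, and Cr2 (-0.84), a receptor of C3 fragments. Microglia markers summed to 269 to 465 CPM in the cross and to 248 to 328 CPM in the mice without transgenes, with 5 of 10 called higher. Of the plaque-associated markers 6 were called higher and 1, Lpl, lower. Their summed level was not higher in the cross, at 183.2 to 344.5 CPM against 251.7 to 321.8 CPM without transgenes. The medians were 213.0 CPM in mice labelled FMN2-/-_APP and 284.6 CPM in those labelled FMN2 +/+ APP. In Fmn2+/+ and Fmn2-/- mice they were 287.9 and 293.6 CPM. Lpl was the largest part of these sums, with means of 178.3 and 170.3 CPM in Fmn2+/+ and Fmn2-/- mice. In the cross its means were 78.0 CPM (labelled FMN2-/-_APP) and 90.4 CPM (labelled FMN2 +/+ APP). The median log2 difference over all 10 plaque-associated markers was 1.01. The oligodendrocyte list had 3 of 5 and the cortical layer list 4 of 5 genes called lower, and the meninges and fibroblast list 1 of 5 called higher, Dcn (log2 1.46). Of the 9 astrocyte markers Gfap was called higher (log2 0.76) and Serpina3n lower (-1.53), and of the infiltrating myeloid markers S100a9 was called higher (2.73). The part of these cell types was not tested; without the mice over 500 CPM in choroid plexus markers the 6 calls were made as well.

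**Figure D3:**
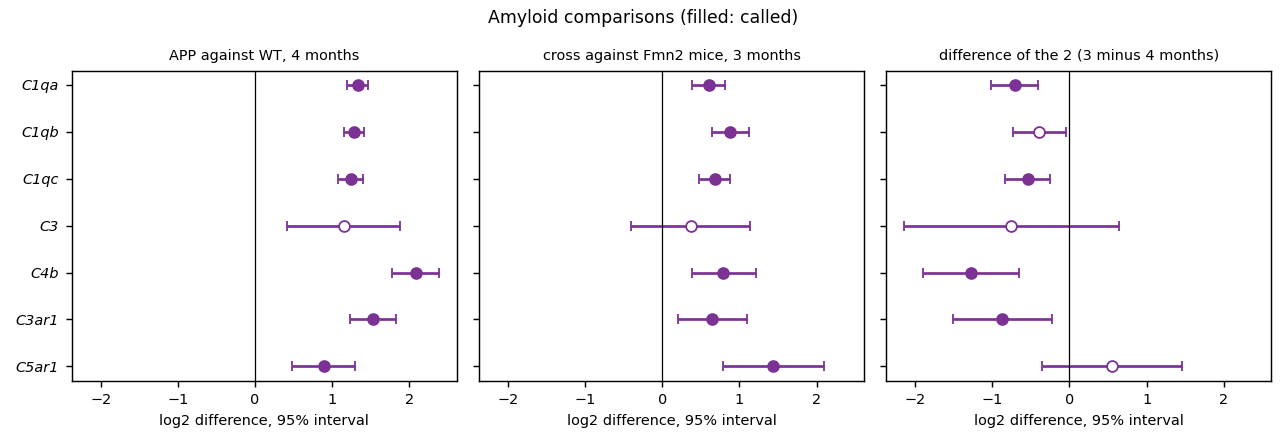
Log2 differences (x axis, with 95% intervals) of the 7 complement genes (y axis) for APP against wild-type mice at 4 months, for the cross against mice without transgenes at 3 months, and for the second effect minus the first, filled where called. C1qa is at 1.33, 0.60 and -0.71 in turn, whereas C5ar1 is at 0.89, 1.44 and 0.55.

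The effects of both amyloid comparisons were then set against each other in 1 fit over all 8 groups. The effect was smaller in the cross for C4b (log2 difference of effects -1.28, SE 0.32, edgeR adjusted p = 0.00255), C3ar1 (-0.87, SE 0.33, adjusted p = 0.0440), C1qa (-0.71, SE 0.16, adjusted p = 0.000676) and C1qc (-0.54, SE 0.15, adjusted p = 0.00593). These were 4 of 7 members, beside 5.18% of 18933 genes called lower by this contrast. For C1qb the difference was -0.39 (95% interval -0.73 to -0.05, edgeR adjusted p = 0.0992), for C3 -0.76 (-2.15 to 0.64) and for C5ar1 0.55 (-0.35 to 1.46), none of which passed. Age, tissue and experiment differ between the comparisons and cannot be told apart. The C3ar1 call was lost in 21 of the 46 fits that left out 1 mouse, the adjusted p reaching 0.0829. Without the mice over 500 CPM in choroid plexus markers only C1qa and C4b were called.

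Within the cross, the mice labelled FMN2-/-_APP were compared to those labelled FMN2 +/+ APP, although Fmn2 was the higher in the former (log2 2.15, edgeR adjusted p = 2.02e-14). No complement gene was called, beside 0.750% of 16656 genes called in either direction. By the same edgeR test 3 members (C4b, C3ar1 and C5ar1) had an unadjusted p under 0.05, as did 2749 of all genes, and DESeq2 called 0 members. The C1q chains gave log2 differences of -0.08 (95% interval -0.38 to 0.21) for C1qa, -0.09 (-0.42 to 0.25) for C1qb and -0.08 (-0.36 to 0.19) for C1qc.

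C4b and both receptor genes were lower in the libraries labelled FMN2-/-_APP, without passing the test. C4b was at 10.5 to 27 CPM (median 18.9) in these and at 19.0 to 75.3 CPM (median 26.6) in the libraries labelled FMN2 +/+ APP, a log2 difference of -0.83 (SE 0.28, edgeR adjusted p = 0.150). C3ar1 was at 0.973 to 2.85 CPM (median 1.51) against 1.51 to 6.99 CPM (median 2.92), a difference of -0.80 (SE 0.33, edgeR adjusted p = 0.230). C5ar1 was at 0.166 to 0.605 CPM (median 0.247) against 0.222 to 1.11 CPM (median 0.587), a difference of -0.90 (SE 0.35, edgeR adjusted p = 0.204). Replicates 8 and 9 labelled FMN2 +/+ APP, the only mice of the cross sequenced on lane 7 alone (replicate 7 of each label had its second run there), had the highest C4b, at 42.4 and 75.3 CPM, and the highest C3ar1, at 6.99 and 4.62 CPM. With lane as a covariate the differences were -0.45 for C4b, -0.34 for C3ar1 and -0.84 for C5ar1 (edgeR adjusted p = 0.320, 0.574 and 0.303). C3 differed by 0.22 (SE 0.46), its 1 high value of 4.01 CPM lying in replicate 9 of the same group.

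Loss of Fmn2 without amyloid was examined at 3 months first. No complement gene was called by edgeR, beside 0.0361% of 16630 genes called, although the 3 C1q chains had an unadjusted p under 0.05, as did 1737 of all genes. C5ar1, with 2 to 11 reads per library, fell under the filter on low counts. The C1q chains stood slightly higher in Fmn2-/- mice, at 36.6, 37.7, 33.9, 28.4 and 35.2 CPM for C1qa against 29.4, 30.2, 26.8, 30.6 and 27.6 CPM in Fmn2+/+ mice. In 4 of the 5 knockout mice C1qa was above all wild-type mice. For C1qb the values were 36.2, 40.0, 29.1, 30.1 and 33.8 CPM against 27, 30.0, 26.1, 28 and 29 CPM, and for C1qc 27.9, 27.9, 25, 22.3 and 26.8 CPM against 20.3, 20.4, 20.1, 23.2 and 21.1 CPM. The log2 differences of 0.25 (SE 0.08) for C1qa, 0.27 (SE 0.09) for C1qb and 0.30 (SE 0.08) for C1qc did not pass adjustment over all genes (edgeR adjusted p = 0.314, 0.314 and 0.216); DESeq2 called C1qc (adjusted p = 0.0341). C4b, C3 and C3ar1 differed by 0.23, 0.63 and -0.05, with intervals that included 0. All wild-type libraries ran on lane 5 and 4 of 5 knockout libraries on lane 6, so too few mice share a lane for values within one; with lane as a covariate the 3 C1q differences were 0.35, 0.37 and 0.41, none called.

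At 8 months the same comparison called no complement gene, beside 2.13% of 14665 genes. In edgeR 1 member, C3, had an unadjusted p under 0.05, as did 3404 of all genes, and DESeq2 called 0. C1qa was at 30.6, 32.6, 31.2, 29.1 and 31 CPM in Fmn2-/- mice and at 33.9, 26.7 and 41.2 CPM in Fmn2+/+ mice, so the knockout values lay inside the range of the wild-type values. C1qb and C1qc behaved alike, with log2 differences of 0.10 (95% interval -0.11 to 0.32) and -0.10 (-0.30 to 0.11), and C1qa differed by -0.13 (-0.35 to 0.08). C3 was at 0.321, 0.545, 1.20, 0.170 and 0.285 CPM against 1.18, 1.82 and 1.04 CPM, from 2 to 12 and 9 to 50 reads. Knockout replicate 3, at 1.20 CPM, was the 1 mouse of its group within the wild-type range. Its log2 difference of -1.34 (SE 0.46) did not pass (edgeR adjusted p = 0.124), but did when genes were not filtered on low counts (adjusted p = 0.0262). C4b was at 21.3, 20.5, 24.5, 24.4 and 20.4 CPM against 14.3, 16.4 and 28.2 CPM, a difference of 0.23 (SE 0.20, edgeR adjusted p = 0.512). Without wild-type replicate 3, the highest for C4b and for each C1q chain, C4b was called at 0.58 (edgeR adjusted p = 0.0338). That fit kept wild-type replicate 1, on lane 6 with 43921030 reads, and replicate 2, on lane 7 with 6818809 reads. All knockout libraries ran on lane 7. With lane as a covariate and all mice kept, the sign of the C4b difference turned. Fmn2-/- replicates 2 and 5 had no C5ar1 read, which allows up to 0.327 and 0.285 CPM, and the gene was not tested.

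**Figure D4:**
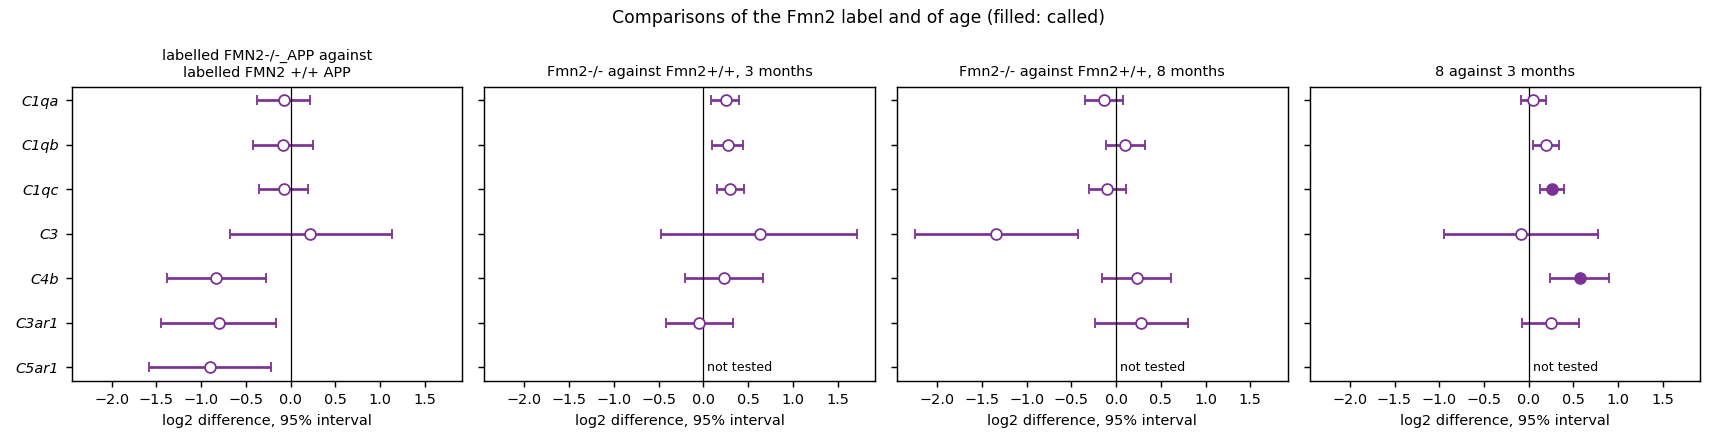
Log2 differences (x axis, with 95% intervals) of the complement genes (y axis) by Fmn2 label in the cross, by Fmn2 genotype at 3 and 8 months, and by age, filled where called. Only C1qc (0.26) and C4b (0.57) are called, both by age; C5ar1 was not tested in the comparisons without amyloid.

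Levels differed a little between the ages over both genotypes. C4b rose by 0.57 from 3 to 8 months (SE 0.17, edgeR adjusted p = 0.0339) and C1qc by 0.26 (SE 0.07, edgeR adjusted p = 0.0122), 2 of 6 members tested, beside 3.50% of 17046 genes called higher. C4b was at 8.30 to 19.2 CPM in the mice at 3 months and at 14.3 to 28.2 CPM in those at 8 months, with overlap. C1qc was at 20.1 to 27.9 CPM and then at 23.6 to 34.5 CPM. C1qb differed by 0.19 (SE 0.07, edgeR adjusted p = 0.0981), C1qa by 0.05 (SE 0.07), C3ar1 by 0.25 (SE 0.16) and C3 by -0.09 (SE 0.44), none called. Both calls were lost without the mice over 500 CPM in choroid plexus markers. C1qc was then at 0.25 (edgeR adjusted p = 0.0540) and C4b at 0.59 (edgeR adjusted p = 0.0968). Of 18 fits that each left out 1 mouse, the C4b call was lost in 6 (edgeR adjusted p up to 0.157). The C1qc call was lost in 3 of the 18 fits (edgeR adjusted p up to 0.0653). Both were lost together without Fmn2+/+ replicate 3 at 8 months or without Fmn2-/- replicate 5 at 3 months. Lane changed with age, from lanes 5 and 6 to lanes 6 and 7, and so did depth, so the 3 cannot be told apart. Of 30 other complement genes tested 1 was called, lower, beside 476 of 17046 genes called lower. It was Masp1 (log2 -0.46), a protease of the lectin pathway. The microglia markers had 1 of 10 called higher, Siglech, the plaque-associated list 1 of 8 tested, Tyrobp (log2 0.33), the astrocyte list 1 of 9, Gfap (log2 0.30), the meninges and fibroblast list 1 of 5, Lum (0.49), and the granule cell list 1 of 6, Trpc6 (0.34). The cortical layer list had 2 of 5 called lower, Cux2 (-0.56) and Fezf2 (-0.42). The part of these cell types in the age calls was not tested.

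The genotype effect was not found to differ between ages. No member passed the interaction test in edgeR, beside 3.94% of 17046 genes called in either direction; 3 members and 3880 of all genes had an unadjusted p under 0.05, and DESeq2 called 1 member, C1qc. The values nearest to passing were -0.41 for C1qc (SE 0.13, edgeR adjusted p = 0.0737) and -0.39 for C1qa (SE 0.14, adjusted p = 0.103), and C3 had the widest interval, at -2.00 (95% interval -3.71 to -0.29, adjusted p = 0.180).

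Across individual mice the C1q chains varied together. On deviations of log2 CPM from the group means over 46 mice, Pearson's r was 0.93 for C1qa and C1qc (Spearman's rho 0.88), 0.92 for C1qb and C1qc (rho 0.87) and 0.90 for C1qa and C1qb (rho 0.85). The permutation p of each was 1.00e-05, the smallest that 100000 permutations give, and 4.20e-05 (7.00e-05 for rho) after adjustment over 21 pairs. With the 2 farthest mice left out r was 0.92, 0.89 and 0.87, and within the 3 experiments it ranged from 0.72 to 0.97. C1qa and C4b gave r = 0.61 (rho 0.61, permutation adjusted p = 4.20e-05), with 0.62 in the Fmn2 mice, 0.70 in the cross and 0.09 in the 12 mice at 4 months, where no relation was seen; the difference between the experiments was not tested. C1qa and C3ar1 gave r = 0.57 (rho 0.55, permutation adjusted p = 9.33e-05), with -0.07 in the Fmn2 mice, 0.71 in the cross and 0.50 in the mice at 4 months. C3 showed no detectable relation to C1qa, with r = 0.03 (permutation p = 0.832). All levels of a mouse share its library.

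Other genes were ranked by their likeness to the members in the same deviations. Among 18926 genes the 5 with the highest r to the mean of the C1q chains were Ctsh (0.81), Tyrobp (0.79), Ctsz (0.79), Lsp1 (0.78) and Ctss (0.78). Ctsh, Ctsz and Ctss encode lysosomal cathepsins, and Tyrobp the adaptor of the microglial receptor TREM2. For C4b they were Gfap (0.83), the intermediate filament of astrocytes, Vim (0.81), Cybb (0.78), Ifitm3 (0.77) and Ggta1 (0.75). For C3 they were Arhgap23 (0.69), Adipor2 (0.66), Pcyt1a (0.62), Trp53inp2 (0.60) and Ermn (0.59). These are the highest of many values, from 46 mice, and are given as a description.

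**Figure D5:**
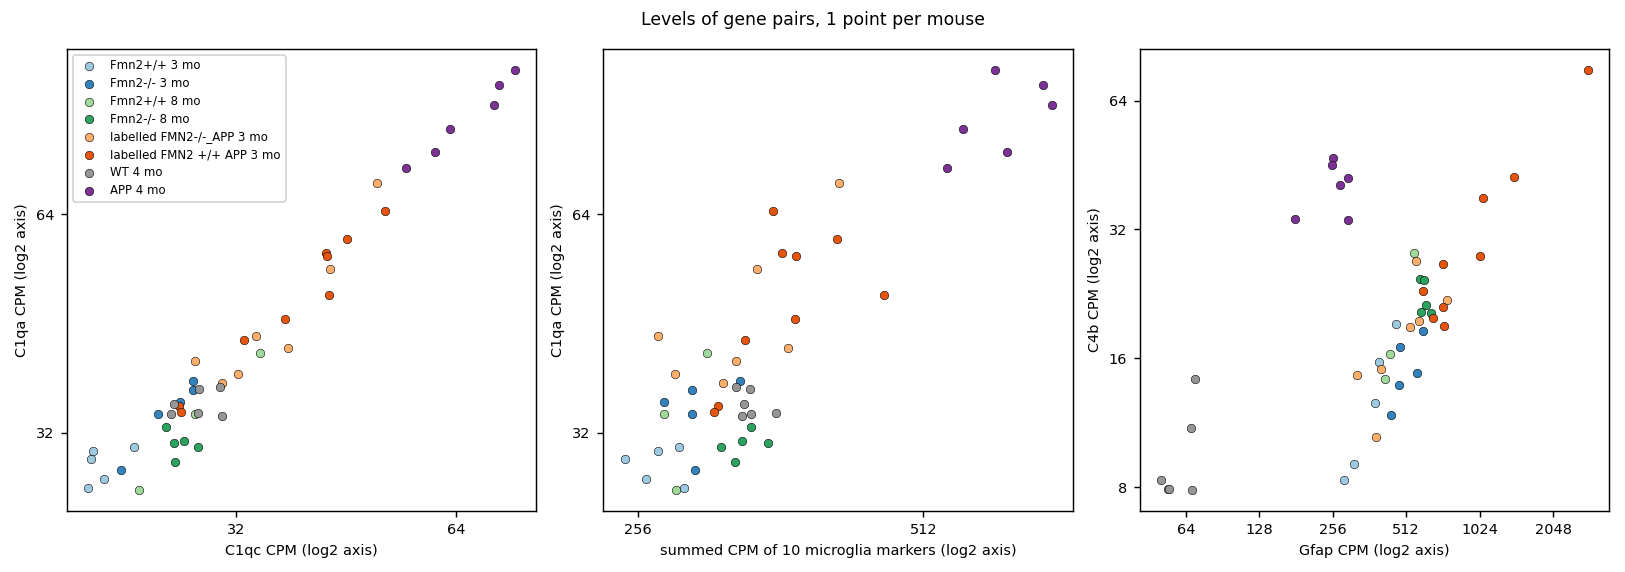
Levels of 3 pairs in CPM on log2 axes, 1 point per mouse and colours by group, with C1qa against C1qc, C1qa against the summed 10 microglia markers, and C4b against Gfap. C1qa and C1qc rise together over all groups. The APP mice at 4 months have C4b of 33.7 to 47.0 CPM at Gfap of 179 to 295 CPM. The only mouse of another group in that Gfap range is Fmn2+/+ replicate 3 at 3 months (Gfap 285 CPM, C4b 8.30 CPM).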

How the data were processed

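RNA of whole tissue was sequenced by the authors from TruSeq libraries, and the reads were aligned by STAR (build mm10) and assigned to genes by HTSeq, as the study's methods and the labels give it. The deposited files hold raw counts per gene, not normalized, 1 file per library. Each count covers reads that fell on 1 gene, so reads shared by C4b and C4a may be missing from both. Both runs of a mouse that had a second run were summed, giving 46 mice in 8 groups. Genes of 48709 identifiers were named from GENCODE M21 (48349 matched). Genes with low counts were removed by filterByExpr (minimum count 10), libraries were scaled by TMM and groups were compared with edgeR 4.0.16 (glmQLFit and glmQLFTest, robust, R 4.3.3), with Benjamini-Hochberg adjustment over all genes tested. Genes were called at an adjusted p under 0.05 and a log2 size of at least 0.5 in the amyloid comparisons, or 0.25 for Fmn2 and age. Intervals are log2 values ± 1.96 SE. Levels were CPM with TMM-scaled library sizes, and RPKM used merged exon lengths; log2 CPM used a prior count of 1.

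Alternatives were DESeq2 1.42.0, RLE size factors, no filter, a length and GC correction (splines of 5 degrees of freedom), the replicate number as a block, lane as a covariate, all 8 groups in 1 fit, 1 library for Fmn2-/- replicates 2 and 3 at 8 months, and each mouse left out. Leaving out mice with choroid plexus markers over 500 CPM was chosen after seeing the data. The replicate numbers pair no animals in the labels. The self-test on simulated counts ran on 2 of the comparisons. The complement genes, the other complement genes, the marker lists and the motifs were chosen with earlier results of these data known. Named outside the 7 members are Fmn2, other complement genes that were called (at most 8 per comparison) and the 5 genes most like C1q, C4b and C3; C4a and single markers were named beside results that they touch, after their values were seen. The values of 1 other called complement gene are not reported here. The p-values measure the spread between the mice sampled, and intervals cover no other error. For the 4-month mice the groups follow the labels.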

Additional observations from a re-analysis of the deposited data

Results flagged for a closer look

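In 49 groups of 4 to 10 mice, over the 7 genes, 4 single values stood apart from the rest of their group by Dixon's criterion, which chance meets in about 1 of 20 groups. C1qb was at 81.6 CPM in replicate 2 labelled FMN2-/-_APP, where the next highest mouse was at 58.7 CPM. The same mouse had the highest C1qa and C3ar1 of its group, at 70.6 and 2.85 CPM. C1qb was at 35.8 CPM in wild-type replicate 1 at 4 months, below the other 5 mice at 40.1 to 41.7 CPM. In replicate 9 labelled FMN2 +/+ APP both C3, at 4.01 CPM against 1.04 CPM in the next mouse, and C4b, at 75.3 CPM against 42.4 CPM, stood apart, and this mouse also had the highest Gfap of all mice, at 2844 CPM.

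For 4 genes the effect of amyloid differed between the cross and the mice at 4 months, by a test of the difference itself in 1 edgeR fit. On the log2 scale the effect in the cross was lower by -0.71 for C1qa, -0.54 for C1qc, -1.28 for C4b and -0.87 for C3ar1. The C3ar1 call was lost in 21 of 46 fits that left out 1 mouse. Without the mice over 500 CPM in choroid plexus markers only C1qa and C4b were called. The cross is compared across experiments, in which age and tissue also differ, and these cannot be told apart.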

How the results depend on the processing

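At 4 months the same count of 6 members was called in every alternative but the fit of all 8 groups, with 5. In the cross it was 6 throughout. Leaving out 1 mouse gave 6 to 6 in both and 0 to 0 by Fmn2 label and by genotype at 3 months. By genotype at 3 months DESeq2 called 1 (C1qc 0.30). At 8 months no filter called 1 (C3 -1.36), and leaving out a mouse gave 0 to 1. By age the count was 0 with no filter, 1 with the length and GC correction and 0 without the mice high in choroid plexus markers, and 0 to 3 with a mouse left out. For the interaction DESeq2 called 1 (C1qc -0.40), and leaving out a mouse gave 0 to 2. For the difference of the amyloid effects it was 2 without the mice high in choroid plexus markers and 3 to 4 with a mouse left out. Signs turned for these values, none of them called as reported. With the length and GC correction these were C1qa 0.17 and C1qc 0.12 at 8 months and C1qb 0.15 and C4b 0.06 in the interaction. With the replicate block they were C1qb 0.07 and C1qc 0.01 by Fmn2 label and C3ar1 0.17 by genotype at 3 months. With lane they were C1qb 0.08 and C1qc 0.02 by label, C3 -1.86 and C3ar1 0.15 at 3 months and C4b -0.02 at 8 months. Without the choroid plexus mice it was C4b 0.02 in the interaction. With a mouse left out, C3ar1 ran from -0.13 to 0.10 at 3 months. At 8 months C1qa ran from -0.25 to 0.01, C1qb from -0.01 to 0.24, C1qc from -0.19 to 0.04 and C4b from -0.02 to 0.58. By age C1qa ran from -0.03 to 0.11 and C3 from -0.40 to 0.14, and C4b ran from -0.26 to 0.34 in the interaction. The cause was not tested.

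Counts over all genes moved more. By genotype at 3 months the 6 calls became 96 with DESeq2, 34 with no filter and 3 with lane. At 8 months the 312 calls became 672 with DESeq2, 1324 with no filter, 67 with the length and GC correction, 11 with replicates 2 and 3 summed, 5 with the block, 3 with lane and 4 without the choroid plexus mice. By label the 125 calls became 356 with DESeq2 and 56 without those mice, and in the interaction the 671 became 1398, 30 with the GC correction, 244 with the summed replicates and 32 without those mice. Same-numbered mice did not deviate together (r from -0.276 to 0.27 over the 4 comparisons); the replicate block called 6 members and 374 genes at 4 months, and 0 members by label (111 genes), at 3 months (2 genes) and at 8 months (5 genes). C3, C3ar1 and C5ar1 rest on few reads, which limits their precision.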

Other observations

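The ratio between the C1q chains differed a little between groups. Per exon length, C1qa stood to C1qb at 1.08 ± 0.0620 in Fmn2+/+ mice at 3 months (SD, n = 5) and at 1.07 ± 0.0974 in Fmn2-/- mice (n = 5), against 0.894 ± 0.0258 in Fmn2-/- mice at 8 months (n = 5), 0.883 ± 0.0797 in the mice labelled FMN2-/-_APP (n = 7) and 0.897 ± 0.0855 in those labelled FMN2 +/+ APP (n = 9). The 5 Fmn2-/- mice at 8 months ranged from 0.855 to 0.919 and the 5 at 3 months from 0.985 to 1.22, without overlap, while the Fmn2+/+ mice at 8 months were at 1.04 to 1.06. The ratio of C1qa to C1qc was lower at 8 than at 3 months in both genotypes, again without overlap. In Fmn2+/+ mice it was at 2.43 to 2.75 and then at 2.09 to 2.24. In Fmn2-/- mice it was at 2.36 to 2.52 and then at 2.00 to 2.35. No test was made of these ratios, which were looked at after the levels were known. Lane and depth changed with age, so age cannot be told apart from them in the ratios either.

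The Fmn2-/- mice at 8 months also had the lowest mean C1qa per 100 CPM of summed microglia markers, at 8.83 to 9.77 CPM, but overlapped with the Fmn2+/+ mice of that age at 9.51 to 13.6 CPM, with the Fmn2-/- mice at 3 months at 9.65 to 12.9 CPM and with the Fmn2+/+ mice at 3 months at 9.37 to 11.9 CPM. Their 10 microglia markers summed to 313 to 351 CPM, against 273 to 303 CPM in Fmn2+/+ mice of that age, and 1 of the 10, Siglech, was called (log2 0.45, edgeR adjusted p = 0.0428). Of the 9 astrocyte markers 2, Gfap (0.38) and Aqp4 (0.46), were called higher in the same comparison, and 7 were not called (median log2 0.17 over the list). Serpina3n, Vim and Aldh1l1 had lower means in the knockout mice, and the rest of the list higher ones. Over all genes 2.13% of 14665 were called in this comparison, a count that moved much with the processing, as given above. C4b, to which Gfap was the most like of all genes ranked, differed there by 0.23 and was not called.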
